A study of Mus musculus with 8 samples.

Results

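Matricellular and adhesive glycoproteins are matrix proteins that cells secrete to tune how they attach, move and signal. The 10 genes described here are Postn (periostin), Thbs1, Thbs2, Thbs3 and Comp (of the thrombospondin family), Sparc and Sparcl1, Tnc (tenascin C), Fn1 (fibronectin) and Vcan (versican). They were chosen by name and matched through the Entrez identifiers of the probe sets. All 10 were measured, each by 1 probe set, among 24704 named genes. RNA came from cultured smooth muscle cells of the mouse aorta, grown in medium with 15% serum. The tested cultures received the adenovirus titled AdN5, which the labels describe as overexpressing NFAT5, and the control cultures received the adenovirus titled AdPl. Virus exposure lasted 24 h in both groups and was followed by 72 h with cholesterol at 10 µg/ml, so neither group was free of virus or of cholesterol. Each group had 4 single-colour Affymetrix arrays. The labels do not say whether these were separate cultures, so the p-values reflect the spread among these arrays alone, and that spread may be technical.

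Several of these proteins are scarce in the quiescent artery and accumulate in the wall during development, after injury and in atherosclerosis. Fibronectin and versican form a provisional matrix on which smooth muscle cells migrate, while periostin, tenascin C, SPARC and the thrombospondins modify adhesion through integrins, syndecans, CD36 and CD47. TGF-beta is a well known inducer of several of them, and thrombospondin 1 can itself release TGF-beta from its latent form. NFAT5 is a transcription factor best known for the response to hypertonic stress.

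The values are log2 expression values made by RMA, in which a difference of 1 means a doubling, and their number of arrays limits the precision. The median gene had a mean log2 value of 3.73, and genes below it are called dim here. Pairs of arrays correlated across genes at 0.990 to 0.992 within the AdN5-labelled group, at 0.992 to 0.993 within the AdPl-labelled group and at 0.989 to 0.992 between them. AdN5 replicate 4 (24.7) and AdPl replicate 3 (14.2) lay at 1 end of the second principal component, which held 17.1% of the variance. AdN5 replicates 3 (-19.5) and 2 (-11.1) lay at its other end. Nfat5 itself averaged 6.97 ± 0.072 in the AdN5-labelled arrays and 7.16 ± 0.089 in the AdPl-labelled arrays (SD, n = 4 each; log2 fold change -0.19, limma adjusted p = 0.360, exact permutation p = 0.0571). The measured transcript thus did not rise with the label, where its probes lie is not stated in the sources at hand, and every direction below rests on the labels. Of the smooth muscle markers, Acta2, Tagln, Smtn, Cnn1, Myh11 and Lmod1 were above the median gene, while Myocd and Des were dim. At or above the median gene were also 6 of 8 measured macrophage, 7 of 9 fibroblast and 5 of 8 endothelial markers. This level alone thus does not tell cell types apart.

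Postn was the only 1 of the 10 genes to pass the test, and it was lower in the AdN5-labelled arrays. Thbs2 was the only other gene whose groups did not overlap, and it was higher, without passing. Genes were compared with limma over all 24704 genes with a call at an adjusted p (Benjamini-Hochberg) under 0.05. By that rule 1 of 10 was called lower, where 0.413% of all genes were, and 0 of 10 were called higher, where 0.364% of all genes were. At an unadjusted p under 0.05 in limma, 1 was higher and 1 lower, against 6.24% and 6.29% of all genes. With variance-trend and robust estimation 1 of the 10 was called higher and 1 lower, where 781 of the 24704 genes were called in either direction. Groups did not overlap for 2 of 10 genes, 1 higher (4.22% of all genes) and 1 lower (4.56%), against 8.78% of all genes in either direction and 14.4% of genes at or above the median level. The median log2 fold change of the 10 genes was -0.056 and that of all genes 0.0042, and 3 of the 10 were above 0 and 7 below.

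**Figure D1:**
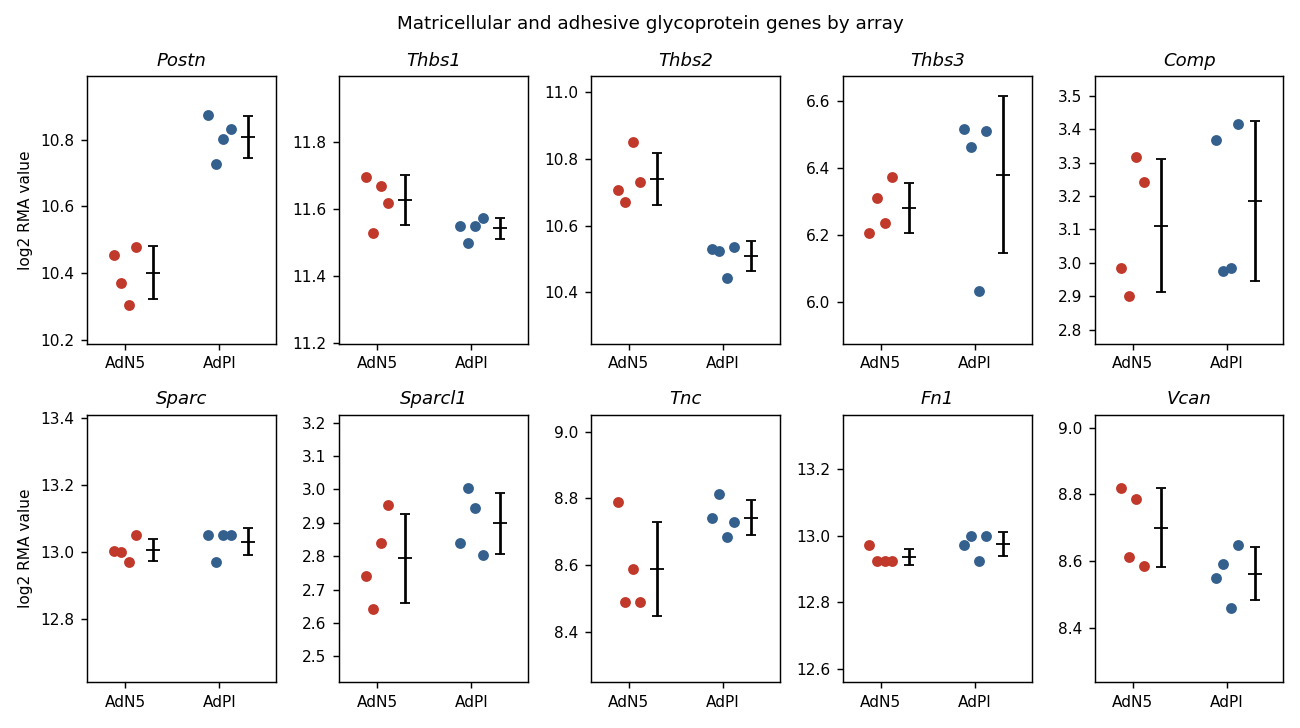
Log2 RMA values of the 10 genes, 1 panel each, with every array a point (AdN5-labelled red, AdPl-labelled blue) and the mean ± SD of 4 arrays as a bar beside them; every panel spans the same log2 range. The groups stand apart for Postn, with AdN5-labelled arrays lower, and for Thbs2, with AdN5-labelled arrays higher, and they overlap in the other 8 panels.

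Periostin is a secreted protein of fasciclin domains that binds collagen and integrins containing the alpha v chain, and it marks activated smooth muscle cells and fibroblasts. Postn had log2 values of 10.45, 10.37, 10.30 and 10.48 in the AdN5-labelled arrays, against 10.87, 10.73, 10.80 and 10.83 in the AdPl-labelled arrays. Every AdN5-labelled array lay below every AdPl-labelled array, and the gap between the nearest arrays was 0.25. Means were 10.40 ± 0.079 in the AdN5-labelled and 10.81 ± 0.062 in the AdPl-labelled arrays (SD, n = 4 each). Postn thus had a log2 fold change of -0.41 ± 0.075 (SE, 95% interval -0.57 to -0.24; limma adjusted p = 0.0466), which is 0.755 times the AdPl level. The size of the difference hardly moved when any 1 array was left out (-0.43 to -0.37), but the call was lost in all 8 of those fits (limma adjusted p 0.0820 to 0.152). In 9 other fits the call held in 7. Among them were the fit to genes at or above the median (limma adjusted p = 0.0107) and variance-trend with robust estimation (3.01e-05). Renewed quantile normalisation (0.0463), median centring (0.0457) and every probe set (0.0468) nearly repeated the fit with all arrays. The values were already quantile normalised and Postn has 1 probe set, so those 3 fits add little. With array weights the limma adjusted p was 0.0408. The call was lost with the replicate number as a block (0.173) and without AdPl replicate 3 and AdN5 replicate 4 together (adjusted p = 0.168).

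Fibroblasts also express periostin, and most of their marker genes had values on the same side of 0. Of 9 measured fibroblast or adventitial markers, 7 had a log2 fold change below 0 and 1, Ly6c1, fell (limma adjusted p = 0.0468), where 0.413% of all genes were called lower. The Ly6c1 call held in 1 of the 8 fits with 1 array left out. The mean log2 level of the list was 5.67 to 5.90 over the AdN5-labelled arrays and 6.11 to 6.15 over the AdPl-labelled arrays. The markers Tcf21 and Ly6c1 were dim, and Pdgfra and Dcn were well above the median gene in both groups. The part of these markers in the Postn result was not tested, and in RNA from whole cultures fewer cells of a type and less RNA per cell cannot be told apart.

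The genes most like Postn over the 8 arrays, among 12351 other genes at or above the median level, were Ccdc47 (Pearson r = 0.985), Elobl (0.985) and Pkia (0.985). These 8 points fall in the groups being compared, so the likeness is partly the group difference itself. After the group means were removed, the correlations of the deviations with Postn were 0.827 to 0.892. The genes were chosen on these same 8 arrays for an r that already requires agreement within groups. High values here were thus largely fixed by the choice. Elobl (log2 fold change -1.30, limma adjusted p = 0.000786) and Pkia (-0.44, 0.0401), encoding an inhibitor of protein kinase A, fell as well, and Ccdc47 was at -0.19 without passing (0.279). With any 1 array left out the call of Elobl held in 8 of 8 fits and that of Pkia in 0.

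RefSeq lists 2 transcription starts for mouse Postn in GRCm38.p6. The 250 bases before the downstream start are shown because this gene carries the only call among the 10 and because this window holds a GGAAA, the core of NFAT binding sites, which the window of the other start lacked. The capitals mark GGAAA on either strand, which reads TTTCC here (chr3:54360857-54361106, plus strand, RefSeq table, GRCm38.p6).
Postn: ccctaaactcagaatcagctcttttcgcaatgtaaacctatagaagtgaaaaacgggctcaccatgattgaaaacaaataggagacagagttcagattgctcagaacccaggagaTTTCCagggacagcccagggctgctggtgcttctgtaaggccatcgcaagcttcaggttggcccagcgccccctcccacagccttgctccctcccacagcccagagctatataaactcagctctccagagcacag
The motif lies 135 bases before the start and is part of TGGAAA, with which the tonicity elements bound by NFAT5 begin. GGAAA, searched on both strands, was in 55.6% of the 32851 windows of this length in the table, and TGGAAA, which contains it, in 18.6%. A match is a description of these letters and not a bound site.

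The thrombospondins are multimeric glycoproteins that bind calcium, and thrombospondins 1 and 2 share receptors and antiangiogenic repeats that the rest of the family lacks. Thbs2 had log2 values of 10.71, 10.67, 10.85 and 10.73 in the AdN5-labelled arrays, against 10.53, 10.52, 10.44 and 10.54 in the AdPl-labelled arrays. Every AdN5-labelled array was above every AdPl-labelled array, with a gap of 0.137 between the nearest. The means were 10.74 ± 0.078 in the AdN5-labelled and 10.51 ± 0.045 in the AdPl-labelled arrays (SD, n = 4 each). The log2 fold change was 0.23 ± 0.073 (SE, 95% interval 0.070 to 0.40), which is 1.17 times the AdPl level and did not pass (limma adjusted p = 0.224, unadjusted p = 0.0101). It passed only with variance-trend and robust estimation (adjusted p = 0.00360), and elsewhere its adjusted p was between 0.0681, among genes at or above the median, and 0.413.

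The Thbs2 promoter window is given beside that of Postn, since these were the genes of the 10 whose groups stood apart, in opposite directions (chr17:14694263-14694512, minus strand, RefSeq table, GRCm38.p6; capitals as before).
Thbs2: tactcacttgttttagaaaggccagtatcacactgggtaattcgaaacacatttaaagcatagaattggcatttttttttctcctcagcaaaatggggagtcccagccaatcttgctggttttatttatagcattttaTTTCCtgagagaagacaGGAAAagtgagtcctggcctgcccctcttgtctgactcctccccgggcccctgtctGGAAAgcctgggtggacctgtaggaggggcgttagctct
It holds 3 GGAAA, at 112, 95 and 39 bases before the start, and the nearest is part of a TGGAAA. Of the 10 genes 6 had windows in the table, 8 windows in all. TGGAAA was in 2 of the 8, the printed ones, against 18.6% of all windows, and GGAAA in 5 of the 8 against 55.6%. The printed Postn window was chosen partly for its GGAAA. The other windows, of Thbs3, Sparc, Tnc, Vcan and the upstream Postn start, held no TGGAAA. The SMAD core CAGAC was in 4 of the 8 windows, those of the upstream Postn start, Thbs2, Sparc and 1 of the Tnc starts, against 42.2% of all windows. The CArG box, bound by serum response factor, was in 0 of the 8 windows against 1.47% of all.

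Thbs1 encodes the thrombospondin that activates latent TGF-beta and restrains nitric oxide signalling through CD47. Its log2 values were 11.70, 11.53, 11.67 and 11.62 in the AdN5-labelled arrays, against 11.55, 11.50, 11.55 and 11.57 in the AdPl-labelled arrays. AdN5 replicate 2 lay inside the AdPl range, and the other AdN5-labelled arrays lay above it. Thbs1 had a log2 fold change of 0.084 ± 0.071 (SE, 95% interval -0.075 to 0.24; limma adjusted p = 0.696).

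Thbs3 and Comp encode thrombospondins without the antiangiogenic repeats, and COMP is a collagen-binding protein of cartilage that smooth muscle cells also make. Thbs3 had log2 values of 6.20, 6.31, 6.24 and 6.37 in the AdN5-labelled arrays, against 6.52, 6.46, 6.03 and 6.51 in the AdPl-labelled arrays. AdPl replicate 3 was the lowest of all 8 arrays and the other AdPl-labelled arrays were the highest, so the groups overlapped through that 1 array. The log2 fold change was -0.10 ± 0.12 (SE, 95% interval -0.36 to 0.16; limma adjusted p = 0.796), and with 1 array left out it was between -0.22, without AdPl replicate 3 (adjusted p = 0.328), and -0.054, without AdPl replicate 1 (0.930). Comp was dim, at 2.90 to 3.32 in the AdN5-labelled and 2.98 to 3.42 in the AdPl-labelled arrays. Its log2 fold change was -0.074 ± 0.14 (SE, 95% interval -0.38 to 0.24; adjusted p = 0.887), and RMA compresses differences of dim genes.

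Whether members of a family moved apart was tested on the log2 difference of each pair within an array, by exact two-sided permutation of the 8 arrays (smallest possible p 0.0286) and with adjustment over the 7 pairs compared. The change of Thbs2 minus that of Thbs3 was 0.33 ± 0.11 (SE; exact permutation p = 0.0857, adjusted 0.200), the widest of the 7. The change of Thbs1 minus that of Thbs2 was -0.15 ± 0.047 (SE; exact permutation p = 0.0571, adjusted 0.200), and the change of Thbs2 minus that of Comp was 0.31 ± 0.13 (exact permutation p = 0.0857, adjusted 0.200). The other 4 pairs gave exact permutation p-values of 0.229 to 0.857. No pair passed. A single pair could reach an adjusted p no lower than 0.200 in this design, and at least 5 of the 7 pairs would have to be at the smallest p to pass, so the test says little about whether members of the family differed in their change.

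**Figure D2:**
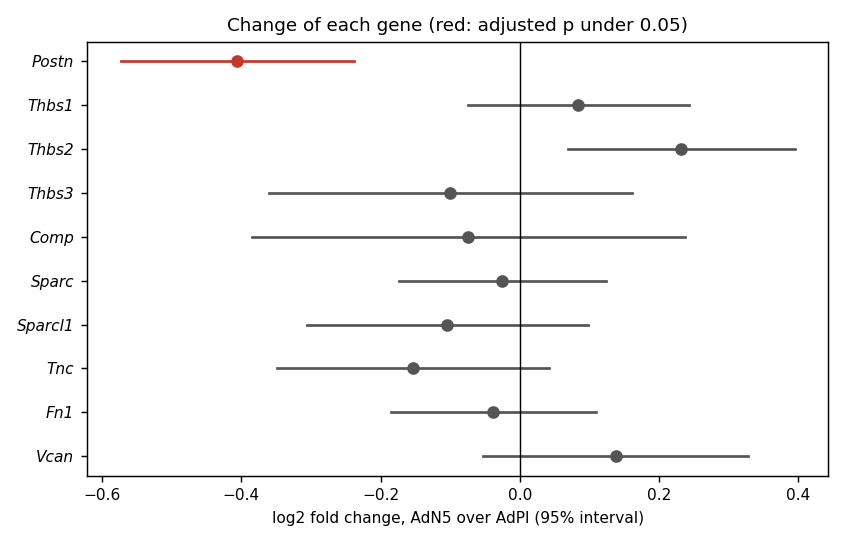
Log2 fold change of each gene, AdN5-labelled over AdPl-labelled arrays, as a point with its 95% limma interval (n = 4 arrays each; red marks the gene with an adjusted p under 0.05). The interval of Postn (-0.57 to -0.24) lies below 0, that of Thbs2 (0.070 to 0.40) lies above it, and the other 8 span 0.

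SPARC is a collagen-binding protein that loosens adhesion and helps collagen fibrils form, and fibronectin is the main adhesive ligand of integrin alpha 5 beta 1. Sparc was at 13.00, 13.00, 12.97 and 13.05 in the AdN5-labelled arrays, against 13.05, 12.97, 13.05 and 13.05 in the AdPl-labelled arrays. Fn1 was at 12.97, 12.92, 12.92 and 12.92 in the AdN5-labelled arrays, against 12.97, 13.00, 12.92 and 13.00 in the AdPl-labelled arrays. Both were at the top of the scale, Sparc at ranks 7 to 9 and Fn1 at ranks 8 to 10 of the 25428 probe sets. Since the sorted values of the arrays were the same to within 0.00183, a value here is fixed by its rank, and each gene held only 3 distinct ranks over the 8 arrays. The log2 fold changes were -0.025 ± 0.067 for Sparc (95% interval -0.17 to 0.12; limma adjusted p = 0.923) and -0.038 ± 0.066 for Fn1 (-0.18 to 0.11; 0.874). Differences that leave a gene's rank unchanged could not be seen in these values.

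Sparcl1 encodes hevin, an antiadhesive relative of SPARC, and was dim. Its log2 values were 2.64 to 2.95 in the AdN5-labelled and 2.80 to 3.00 in the AdPl-labelled arrays, and the groups overlapped. The log2 fold change was -0.10 ± 0.090 (SE, 95% interval -0.31 to 0.098; limma adjusted p = 0.706). The changes of Sparc and Sparcl1 differed by 0.079 ± 0.087 (SE; exact permutation p = 0.371), which is within the spread of the arrays, and by 0.024 without AdPl replicate 2.

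Tenascin C is a multimeric glycoprotein induced by injury and mechanical load that weakens adhesion to fibronectin. Tnc had log2 values of 8.79, 8.49, 8.59 and 8.49 in the AdN5-labelled arrays, against 8.74, 8.81, 8.69 and 8.73 in the AdPl-labelled arrays. AdN5 replicate 1 lay among the AdPl values, and the other AdN5-labelled arrays lay below all of them. Tnc had a log2 fold change of -0.15 ± 0.087 (SE, 95% interval -0.35 to 0.042; limma adjusted p = 0.528). Without AdN5 replicate 1 it was -0.22 and did not pass either (adjusted p = 0.319).

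Versican is the large hyaluronan-binding chondroitin sulphate proteoglycan of the arterial intima and retains lipoproteins there. Vcan had log2 values of 8.82, 8.61, 8.79 and 8.59 in the AdN5-labelled arrays, against 8.55, 8.59, 8.46 and 8.65 in the AdPl-labelled arrays. AdN5 replicates 1 and 3 were above all AdPl-labelled arrays, and replicates 2 and 4 were within their range. The log2 fold change was 0.14 ± 0.085 (SE, 95% interval -0.053 to 0.33; limma adjusted p = 0.566).

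The 10 genes also differed in how tightly their replicates agreed. The smallest within-group SD was 0.024, for Fn1 in the AdN5-labelled arrays, and the largest 0.238, for the dim Comp in the AdPl-labelled arrays. Since Fn1 held ranks 8 to 10, where a value is fixed by its rank, its SD does not measure agreement alone. Thbs3 had an SD of 0.075 in the AdN5-labelled and 0.234 in the AdPl-labelled arrays, with the low AdPl replicate 3 in the second group.

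Receptors, processing enzymes, inducers, other matrix glycoproteins and hyaluronan and lectican genes were read from 5 lists of 105 genes, of which 104 were measured. Of these, 3 rose, 1 fell and 100 did not pass, where 0.777% of all genes were called in either direction. Their groups did not overlap for 27 genes, 15 higher and 12 lower in the AdN5-labelled arrays, against 8.78% of all genes and 14.4% of those at or above the median level.

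**Figure D3:**
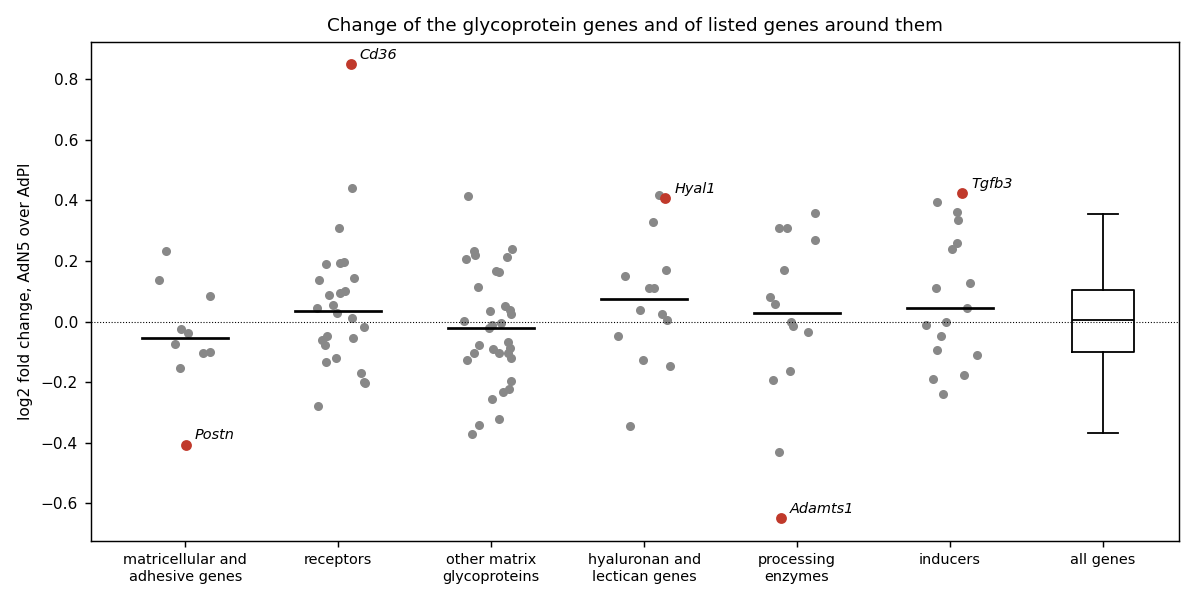
Log2 fold change, AdN5-labelled over AdPl-labelled arrays, of the 10 glycoprotein genes and of the 5 lists around them, 1 point a gene (red: adjusted p under 0.05), with the median as a line; the box for all 24704 genes spans the quartiles and its whiskers the central 95%. The red points are Postn and Adamts1 below 0 and Cd36, Hyal1 and Tgfb3 above 0, and the list medians lie between -0.056 and 0.074.

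Receptors had 1 gene that rose, 0 that fell and 25 that did not pass, with a median of 0.036. CD36 binds thrombospondin 1 and 2 and also takes up oxidised lipoproteins. Cd36 was at 6.42, 6.64, 6.86 and 6.45 in the AdN5-labelled arrays, against 5.89, 5.66, 5.44 and 5.995 in the AdPl-labelled arrays, and the groups did not overlap. It rose by 0.85 ± 0.14 on the log2 scale (limma adjusted p = 0.0313), but this call was lost with any 1 array left out (0.0548 to 0.102). Macrophages carry CD36 too, and 3 of 8 measured macrophage markers rose (Adgre1, Cd68 and Laptm5), where 0.364% of all genes were called higher, while Ptprc and Aif1 were dim. With any 1 array left out the call of Adgre1 held in 8 of 8 fits, that of Laptm5 in 1 and that of Cd68 in 0. The mean log2 level of that list was 6.23 to 6.40 over the AdN5-labelled and 5.85 to 6.07 over the AdPl-labelled arrays, and its part in the Cd36 result was not tested. Itga1, a collagen-binding integrin chain, was lowest of the list at -0.28 without passing (adjusted p = 0.276).

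The list of other matricellular, adhesive and basement membrane glycoproteins had 0 of 33 measured genes called in either direction by limma, and at an unadjusted p under 0.05 it had 4 higher and 5 lower, against 6.24% and 6.29% of all genes. Its median was -0.022. Nid1, encoding nidogen 1 of the basement membrane, was highest at 0.41 (adjusted p = 0.0993). It passed among genes at or above the median (0.0318) and with variance-trend and robust estimation (0.00320), and in 0 of the 8 fits with 1 array left out. Vtn, encoding the adhesive plasma protein vitronectin, was lowest at -0.37 and dim (adjusted p = 0.266). Thbs4, also of the thrombospondin family, was dim and had a log2 fold change of 0.21 (limma adjusted p = 0.271). Its AdN5-labelled arrays all lay above its AdPl-labelled arrays, as was so for 4.22% of all genes. Thbs4 was not among the family pairs compared.

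Among 14 genes of hyaluronan synthesis, binding and breakdown and of the lecticans, relatives of versican, 1 rose, 0 fell and 13 did not pass (median 0.074). Hyal1, a lysosomal hyaluronidase, was at 8.95, 9.00, 8.89 and 8.88 in the AdN5-labelled arrays, against 8.58, 8.60, 8.42 and 8.49 in the AdPl-labelled arrays, so the groups stood apart. It rose by 0.41 ± 0.075 (limma adjusted p = 0.0468; 0.0908 to 0.148 with any 1 array left out). Tnfaip6, encoding the inflammatory hyaluronan-binding protein TSG-6, was at 0.42 and dim, and Cemip, needed for hyaluronan breakdown outside the lysosome, at -0.34, neither passing. Cemip passed among genes at or above the median (adjusted p = 0.0499) and with variance-trend and robust estimation (0.00547), and in 0 of the 8 fits with 1 array left out.

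The 14 processing enzymes and crosslinkers had 0 genes that rose, 1 that fell and 13 that did not pass (median 0.028). ADAMTS1 is a metalloprotease that cuts versican and carries thrombospondin repeats. Adamts1 was at 9.33, 9.24, 9.22 and 9.31 in the AdN5-labelled arrays, against 9.87, 9.95, 9.88 and 10.00 in the AdPl-labelled arrays. The groups stood clearly apart, and Adamts1 fell by 0.65 ± 0.071 on the log2 scale, to 0.638 times the AdPl level (limma adjusted p = 0.00656). Its call held in 8 of the 8 fits with 1 array left out (0.0192 to 0.0352) and was lost without AdPl replicate 3 and AdN5 replicate 4 together (adjusted p = 0.0600). Adamts9, another protease that cuts versican, was highest of the list at 0.36 without passing (0.325).

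Of 17 inducers 1 rose, 0 fell and 16 did not pass (median 0.046). Tgfb3, a TGF-beta ligand, was at 7.66, 7.63, 7.67 and 7.69 in the AdN5-labelled arrays, against 7.32, 7.18, 7.25 and 7.20 in the AdPl-labelled arrays, with no overlap. It rose by 0.42 ± 0.068 on the log2 scale (limma adjusted p = 0.0283; 0.0713 to 0.104 with any 1 array left out). Tgfb2, another ligand, was lowest of the list at -0.24 without passing (0.257).

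**Figure D4:**
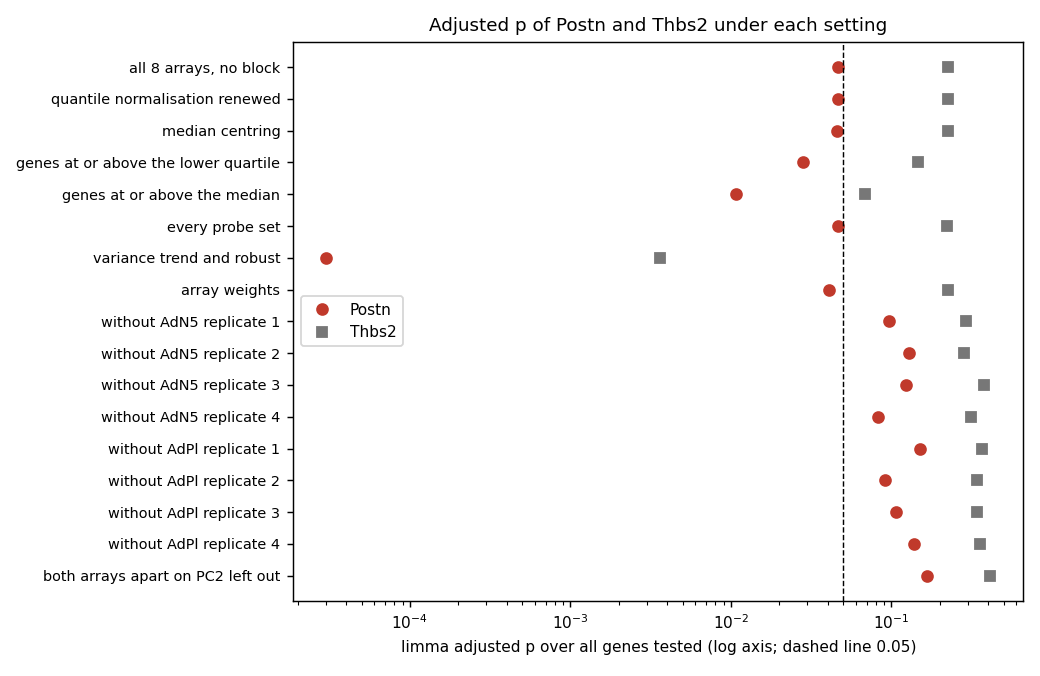
Limma adjusted p (log axis) of Postn (circles) and Thbs2 (squares) with all 8 arrays and under other settings, with the threshold of 0.05 as a dashed line. The fit with the replicate block is not drawn, and in it neither Postn (0.173) nor Thbs2 (0.400) passed. Postn lies just below the line with all arrays (0.0466) and above it in each fit that leaves out arrays (0.0820 to 0.168); Thbs2 is below it only with variance-trend and robust estimation (0.00360).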

How the data were processed

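The authors deposited log2 values from RMA (no version), per the submitters' processing notes. RMA corrects background, quantile normalises arrays and summarises probe sets, so a shift of all genes cannot be seen and dim genes are compressed. The table held 25428 probe sets in 8 columns, matched to samples by accession, and groups and replicate numbers came from the titles. The probe table named 24705, and 723 stayed unnamed. The 1 symbol on more than 1 probe set kept the brightest, leaving 24704 genes, with no filter. Of the Entrez identifiers 24673 matched RefSeq (GRCm38.p6), with 0 symbols changed. The build behind the probe sets is not given in the sources used here, so only promoter windows have coordinates. The table holds no detection calls, batch or scan date.

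Groups were compared with limma 3.58.1 in R 4.3.3 (lmFit, eBayes, two-sided, no covariates), adjusted over all genes by Benjamini-Hochberg. Scripts were tested on simulated data. Python 3.11.15 and matplotlib 3.10.9 searched promoters and drew figures. Alternatives were a replicate block, renewed quantile normalisation, median centring, filters on dim genes, every probe set, variance-trend with robust estimation, array weights, other thresholds and leaving out arrays. Besides the 10 genes and Nfat5, the text names called genes, both ends of each list and the 3 genes most correlated with a called member. Markers, Thbs4 and genes of the other observations named beyond that were chosen after their values were seen. Members and lists were chosen with earlier results of these data known. Spp1, Lyz2 and Ly6a were not analysed here. Of 8 endothelial markers 0 were called. The 8 smooth muscle markers also had 0 calls. Their groups did not overlap for Cnn1, higher (log2 fold change 0.33), and Acta2, lower (-0.30), against 8.78% of all genes in either direction.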

Additional observations from a re-analysis of the deposited data

Results flagged for a closer look

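Within-group outliers were sought by the gap of the most extreme array over the group's range, in 50 groups of 4 arrays, and 4 were found, where chance gives about 5% of groups. AdPl replicate 3 was low for Thbs3 (6.03, with the other AdPl-labelled arrays at 6.46 to 6.52) and for Thbs2 (10.44, with the others at 10.52 to 10.54). Leaving it out gave log2 fold changes of -0.22 for Thbs3 and 0.21 for Thbs2, neither past the threshold. Sparc was at 12.97 in AdPl replicate 2 and at 13.05 in the other AdPl-labelled arrays, and Fn1 was at 12.97 in AdN5 replicate 1 and at 12.92 in the other AdN5-labelled arrays. In these groups Sparc held ranks 9 and 7 and Fn1 ranks 9 and 10, so the gaps are steps of 1 or 2 ranks at the top of the scale.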

How the results depend on the processing

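The 10 log2 fold changes were recomputed in 168 cases: 156 kept their direction and their side of the threshold, 10 lost the call, 1 gained it and 1 turned. The lost calls were all of Postn, the gain was Thbs2, and the turn was the dim Comp (-0.14 to 0.0027 with 1 array left out). Renewed quantile normalisation, median centring and every probe set nearly repeat the fit with all arrays and are counted in the 168. The 9 genes without a call had none to lose, so the 156 say little about robustness. Members called lower numbered 1 with all arrays and 0 at an adjusted p under 0.01, with a change of at least 1.5-fold, without AdPl replicate 3 and AdN5 replicate 4 together (chosen after seeing the data) and with any 1 array left out. Members called higher numbered 0, and 1 with variance-trend and robust estimation. Listed genes called numbered 4 with all arrays, 11 with dim genes left out, 19 with variance-trend and robust estimation, 1 at an adjusted p under 0.01, 2 with at least 1.5-fold, 0 without those 2 arrays and 1 with any 1 array left out. All genes called numbered 192, and 497, 781, 42, 110 and 30 under the same settings in the same order, with 56 to 88 with any 1 array left out. With 1 array left out, the difference in change ranged from -0.18 to -0.12 for Thbs1 minus Thbs2, from 0.14 to 0.30 for Thbs1 minus Thbs3, from 0.28 to 0.43 for Thbs2 minus Thbs3, from 0.24 to 0.38 for Thbs2 minus Comp, from 0.091 to 0.228 for Thbs1 minus Comp, from 0.024 to 0.117 for Sparc minus Sparcl1 and from -0.11 to 0.072 for Thbs3 minus Comp, and the first 4 each passed an unadjusted exact permutation p of 0.05 in 1 of 8 such fits. Each of those passes was at an exact permutation p of 0.0286, the smallest possible with 1 array left out. They were not adjusted over pairs or fits, so nothing is concluded from them. Same-numbered arrays did not deviate together (correlations of -0.079 to 0.055, and 1 of 4 best with its own number), so the numbers are not taken to pair the samples. With the replicate block 0 members, 0 listed genes and 14 of all genes were called, and Adamts1 was at an adjusted p of 0.0851. Postn had the same log2 fold change of -0.41 and an adjusted p of 0.173 with the block, and within pairs the family tests could not go below p = 0.125 in an exact sign-flip test. Fewer arrays widen the errors by construction; the cause of other moves was not tested. No detection calls limit what can be said of Comp and Sparcl1.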

Other observations

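Related chains of the basement membrane lay on opposite sides of 0; these genes were chosen after their values were seen, and the difference between them was not tested. Lamb1 and Lamb2 encode alternative laminin beta chains. The other laminin genes listed, Lama2 (-0.23), Lama4 (-0.087), Lama5 (-0.078) and Lamc1 (-0.11), were all below 0 without passing. Lamb1 was at 9.13, 9.08, 9.14 and 9.05 in the AdN5-labelled arrays, against 8.91, 8.89, 8.68 and 9.04 in the AdPl-labelled arrays. Lamb2 was at 7.98, 8.01, 8.02 and 7.88 in the AdN5-labelled arrays, against 8.22, 8.36, 8.32 and 8.28 in the AdPl-labelled arrays. Neither pair of groups overlapped, as was so for 14.4% of all genes at or above the median level. The log2 fold changes were 0.22 (limma adjusted p = 0.345) and -0.32 (0.0969), neither past the threshold. Lamb2 passed among genes at or above the median (adjusted p = 0.0216) and with variance-trend and robust estimation (0.00292), and Lamb1 under no alternative run.

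The nidogens, which link laminin to collagen IV, showed the same arrangement. Nid1 was at 9.83, 9.68, 9.89 and 9.58 in the AdN5-labelled arrays, against 9.28, 9.47, 9.26 and 9.33 in the AdPl-labelled arrays. Nid2 had a log2 fold change of -0.20 (limma adjusted p = 0.349), also without overlap of the groups. Among receptors, the integrin chain Itgav, a partner for periostin, was at 9.79, 9.55, 9.78 and 9.68 in the AdN5-labelled arrays, against 9.21, 9.29, 9.12 and 9.41 in the AdPl-labelled arrays (log2 fold change 0.44, limma adjusted p = 0.0741). Cd47, another thrombospondin receptor, was at 0.19 (0.290), and its groups did not overlap either. With variance-trend and robust estimation Itgav (adjusted p = 0.00125) and Cd47 (0.0206) passed, Itgav passed also among genes at or above the lower quartile (0.0496) and the median (0.0225), and neither passed in any of the 8 fits with 1 array left out.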
